A study of Mus musculus with 9 samples.

Results

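The proteasome is the barrel-shaped protease that degrades proteins tagged with ubiquitin, and its genes carry symbols starting with Psm. Members were taken as every symbol of the deposited gene table that reads Psm, a letter from a to g and a number, without the names marked as pseudogenes (-ps). That gave 49 genes of 49585 rows. Of 54 symbols with this start, 4 pseudogene names (Psmb5-ps, Psmb6-ps, Psmb6-ps2 and Psmb7-ps2) were dropped. Psmc3ip was set aside, since letters follow its number and it encodes a partner of meiotic recombinases, not a proteasome protein.

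RNA was measured by sequencing of libraries depleted of ribosomal RNA, made from whole ventricles of male mice, a hybrid of C57BL/6 and ICR. There were 3 groups of 3 libraries. Ctrl received normal chow. For Ctrl_HF, 60% of the kilocalories came from fat and the water contained 1 g/L L-NAME, which blocks nitric oxide synthesis, for 15 weeks. This pair of stresses models heart failure in which the ejection fraction is preserved. TTg_HF received the same and also carried MGTH2A, a transgene known to encode Mef2c, Gata4, Hand2 and Tbx5, transcription factors of heart development. The alleles Tcf21iCre and R26 tdTomato were shared by every group, as was tamoxifen at 2 mg per day on 5 days at week 5. Tcf21 marks cardiac fibroblasts, so the transgene is switched on in that lineage, whereas the RNA came from the whole ventricle. A transgenic group on normal chow is not analysed here, so TTg_HF against Ctrl combines the diet and the transgene. The labels give no ages and do not say that each library is a separate animal. The p-values therefore measure the spread between these libraries.

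The libraries held 6743109 to 9364336 counts, and the proteasome genes took 0.340% to 0.377% of them. Levels are given as CPM, counts per 1000000 on library sizes scaled by TMM, and 1 count was worth 0.107 to 0.148 CPM. Tbx5, one of the transgene's factors, lay at 103 to 189.8 CPM in TTg_HF, at 26.8 to 32.0 in Ctrl and at 20.2 to 27.1 in Ctrl_HF. The 10 cardiomyocyte markers summed to 97734 to 109256 CPM in Ctrl, 92306 to 93765 in Ctrl_HF and 88912 to 90607 in TTg_HF, so that all 6 diet libraries lay below Ctrl. In Ctrl_HF against Ctrl 9 of the 10 had a difference below 0 and 1 (Mybpc3, −0.41, edgeR adjusted p = 0.0142) was called lower, and the part of this shift in the differences between diet and chow was not tested. The 12 markers of T, natural killer and B cells summed to 1.74 to 9.04 CPM. On the first principal component of all genes (31.2% of the variance) the Ctrl_HF libraries lay at 5.12, 48.5 and 23.5 and the other 6 between −23.5 and −2.33, so that Ctrl_HF was the most spread group. In bulk tissue, fewer cells of a type and less RNA per cell cannot be told apart. A gene is called changed where edgeR's quasi-likelihood test, adjusted by Benjamini-Hochberg over the 12670 genes tested, gave an adjusted p under 0.05.

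The core of the proteasome is a stack of rings, with outer rings of alpha subunits that gate the channel and inner rings of beta subunits that carry the proteolytic sites. The cap binds to an end of the core. Its base holds the ATPases that unfold substrates, and its lid holds the deubiquitinase that removes the ubiquitin chain. In the immunoproteasome, which interferon gamma induces, the catalytic beta subunits Psmb5, Psmb6 and Psmb7 are replaced by Psmb8, Psmb9 and Psmb10. The core and cap are needed in every cell, and in cardiac muscle they share the turnover of sarcomere proteins with ubiquitin ligases such as Trim63 and Fbxo32.

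Upstream sequence is shown for the member that changed, Psmd11, for a pair of catalytic subunits, Psmb5 and Psmb6, and for the inducible subunit Psmb10. They come from the RefSeq promoter table on GRCm38.p6, the assembly of mm10, and run 5′ to 3′ on the strand of the gene. They cover up to 250 bases before the RefSeq start, less the bases that GENCODE vM21 places inside the gene. Capitals mark a match, on either strand, to an ETS site (CCGGAAG) or to the core of the antioxidant response element (TGACNNNGC), the element bound by the proteasome gene activators of the NRF family. The Psmd11 stretch is chr11:80428365-80428614 (plus strand), Psmb5 is chr14:54618023-54618245 (minus strand), Psmb6 is chr11:70525107-70525356 (plus strand) and Psmb10 is chr8:105938445-105938642 (minus strand).
Psmd11: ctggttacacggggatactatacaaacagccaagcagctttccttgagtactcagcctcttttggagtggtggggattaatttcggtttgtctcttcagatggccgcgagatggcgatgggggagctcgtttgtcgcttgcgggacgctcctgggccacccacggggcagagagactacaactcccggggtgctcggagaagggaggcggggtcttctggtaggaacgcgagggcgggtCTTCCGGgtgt
Psmb5: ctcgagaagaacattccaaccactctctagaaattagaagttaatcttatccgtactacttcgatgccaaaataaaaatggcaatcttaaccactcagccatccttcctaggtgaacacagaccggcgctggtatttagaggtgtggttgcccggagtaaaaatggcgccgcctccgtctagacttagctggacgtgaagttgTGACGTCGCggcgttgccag
Psmb6: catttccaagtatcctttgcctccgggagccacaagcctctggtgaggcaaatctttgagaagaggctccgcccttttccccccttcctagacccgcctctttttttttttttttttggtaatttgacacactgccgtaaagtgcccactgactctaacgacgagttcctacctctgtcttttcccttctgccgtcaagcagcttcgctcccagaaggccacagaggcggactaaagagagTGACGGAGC
Psmb10: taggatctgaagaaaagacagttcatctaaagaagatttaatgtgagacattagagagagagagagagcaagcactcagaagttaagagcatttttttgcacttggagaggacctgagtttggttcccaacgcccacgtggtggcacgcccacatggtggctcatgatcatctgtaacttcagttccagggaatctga

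The ETS match of Psmd11 starts 11 bases before the RefSeq start, and the antioxidant element cores of Psmb5 and Psmb6 start 47 and 9 bases before it. The Psmb10 stretch held no match to any of the 6 motifs searched, and it had 3 CpG dinucleotides over the whole 250 bases against 15, 10 and 17 for Psmb5, Psmb6 and Psmd11. The RefSeq windows of Psmb8 and Psmb9 lie inside the first exon of the GENCODE principal transcript and are not printed.

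Of the 49 members, 41 had 44 promoters in the RefSeq table. ETS sites were found in 13 of the 44 windows of 250 bases (29.5%), against 6.91% of the 32851 promoters in the table. The genes were Psma6, Psmc1, Psmc2, Psmc6, Psmd2, Psmd4, Psmd6, Psmd11, Psmd12, Psme3, Psme4 and Psmg1, all core, cap, activator or assembly genes. The inducible beta subunits had 3 windows, without an ETS match and too few to compare. Antioxidant element cores were found in 5 windows (11.4% against 10.2% of all promoters), those of Psmb5, Psmb6, Psmc6, Psmd9 and Psmd12. CCAAT boxes (CCAAT) were found in 14 (31.8% against 33.8%). Interferon-stimulated elements (GAAA, any 2 bases, GAAA) were found in 3 (6.82% against 2.98%), those of Psmb3, Psmd4 and Psmd9. Gamma-activated sites (TTCNNNGAA) were found in 2 (4.55% against 7.02%), those of Psmg1 and of the inducible Psmb8, whose window lies inside the first exon. NF-kappa-B sites (GGGAC followed by TTTCC) were found in none (0.140% of all promoters). The windows of members held a median of 14 CpG dinucleotides, against 6 over all promoters, and the part of this composition in the share of ETS matches was not tested. A match is a run of letters and was not tested for binding.

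Of the 49 members, 46 were expressed highly enough to be tested. Psma8, the alpha subunit of the testis proteasome, lay at 0.411 to 1.76 CPM. Psmb11, the beta subunit of the thymus proteasome, had 2 counts in Ctrl replicate 2 and none elsewhere. Psme2b, a near-identical copy of Psme2, had none in any library, which allows up to 0.320 to 0.445 CPM (3 counts, counting error only).

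**Figure D1:**
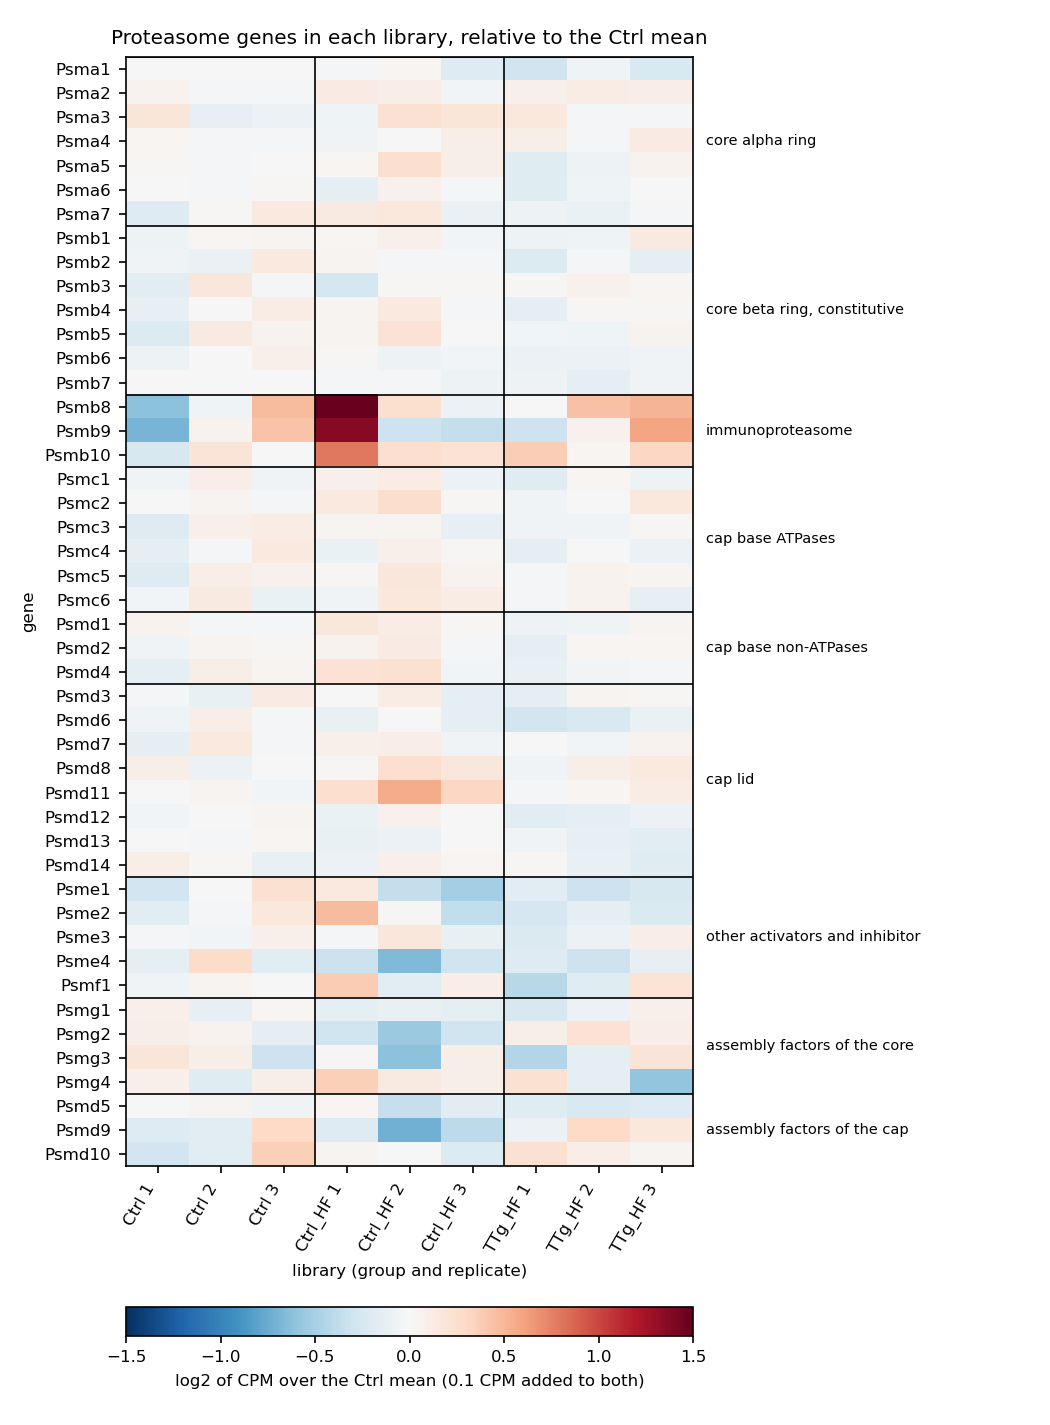
Each row is a tested proteasome gene, grouped by role, and each column a library. Colour is the log2 of CPM over the Ctrl mean, with 0.1 CPM added to both, from blue (lower) to red (higher). Psmb8, Psmb9 and Psmb10 are darkest in Ctrl_HF replicate 1, Psmd11 is red in all 3 Ctrl_HF libraries, and the core and cap rows stay pale.

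Per kilobase of transcript, the core and cap genes spanned a 4.97-fold range in Ctrl. The 31 constitutive genes of core and cap spanned 21.9 CPM per kilobase (Psma3) to 109 (Psmb6), with a median of 48.7. Transcript length is that of the principal GENCODE transcript, and with the counted region not given in the sources used here, levels between genes are approximate. Within the alpha ring the order ran from Psma3 to Psma6 (93.8 CPM per kilobase) and within the constitutive beta ring from Psmb5 (44.4) to Psmb6. Among the ATPases of the base the lowest was Psmc6 (37.7) and the highest Psmc3 (84.5). The other base subunits ran from Psmd1 (48.7) to Psmd2 (79.8), the large scaffolds of the base, and the lid from Psmd13 (29.5) to Psmd3 (52.4). Some of these ranks turn with the length chosen. Per kilobase of all annotated exons of a gene, the constitutive beta ring ran from Psmb3 (18.6) to Psmb4 (56.0), the ATPases from Psmc2 (17.0) to Psmc3 (53.0) and the lid from Psmd13 (17.4) to Psmd7 (33.4). By that length the highest of all 31 was Psma6 (79.2) and not Psmb6 (46.5), while Psma3 was still the lowest and the ends of the alpha ring and of the other base subunits were the genes already named.

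Of the other classes, the activators with the inhibitor (21.1-fold) and the core chaperones (10.5-fold) spanned wider ranges per kilobase in Ctrl. The inducible beta subunits (2.92-fold) and the cap chaperones (1.23-fold) spanned narrower ones. The inducible beta subunits lay at 3.87 (Psmb8) to 11.3 CPM per kilobase (Psmb10) in Ctrl, with Psmb9 (1.55) below Psmb8 (1.86) per kilobase of all exons. Psme4, which encodes the activator PA200, stood at 104, whereas Psmf1, which encodes the inhibitor PI31, stood at 4.92. The chaperones that assemble the core ran from Psmg3 (1.84) to Psmg2 (19.4; per kilobase of all exons the highest was Psmg4 at 17.3), and those that assemble the cap from Psmd9 (4.40) to Psmd10 (5.41), also known as gankyrin. The core and cap genes varied little between libraries of a group, with a median coefficient of variation of 6.23% in Ctrl, 6.06% in Ctrl_HF and 5.59% in TTg_HF. All tested genes in the same range of CPM had medians of 7.59%, 9.49% and 6.33%.

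**Figure D2:**
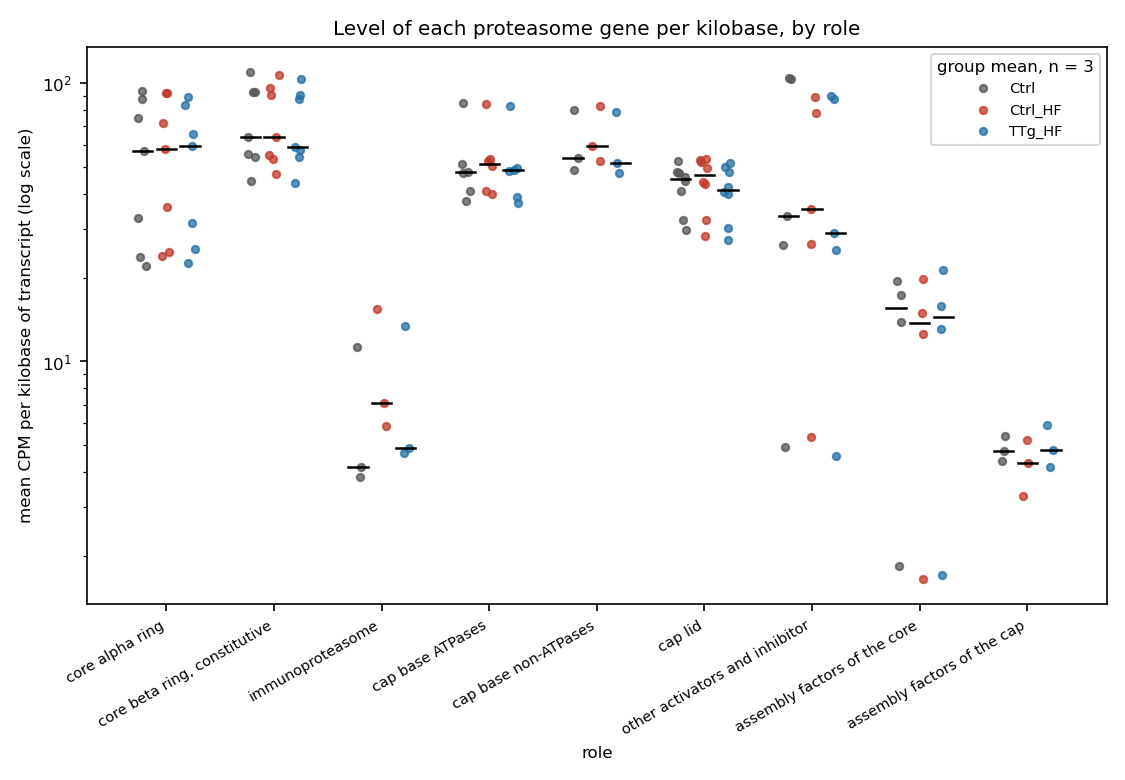
Mean CPM per kilobase of the principal transcript on a log axis, with 1 point for each tested gene in each group (n = 3 libraries) and a black line at the median of the role. The inducible subunits and the cap chaperones lie below the core and cap genes in every group, where Ctrl medians are 4.18 and 4.79 against 48.7.

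Between Ctrl_HF and Ctrl, 1 of the 46 tested members changed: Psmd11 rose. Over all genes tested the share called was 3.61% (1.79% rose and 1.82% fell). No member fell. Without adjustment, 4 of the 46 had a p under 0.05, against 20.6% of all genes. The median log2 fold change of the members was 0.02 and that of all genes 0.01. The difference was above 0 for 27 of the 46 members, against 51.5% of all genes. Between TTg_HF and Ctrl_HF no member changed by edgeR's quasi-likelihood test, where 0.0868% of all genes were called (0.0474% higher, 0.0395% lower), and 3 members had an unadjusted p under 0.05, against 14.3% of all genes. By DESeq2 none changed in this comparison either, where 341 of 12265 genes were called. Between TTg_HF and Ctrl none changed by edgeR, where 0.466% of all genes were called (0.284% higher, 0.182% lower). No member changed by DESeq2, where 184 of 11878 genes were called. By edgeR 1 member had an unadjusted p under 0.05, against 9.41% of all genes. These comparisons share libraries, so a value in Ctrl_HF enters 2 of the 3 in opposite directions.

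**Figure D3:**
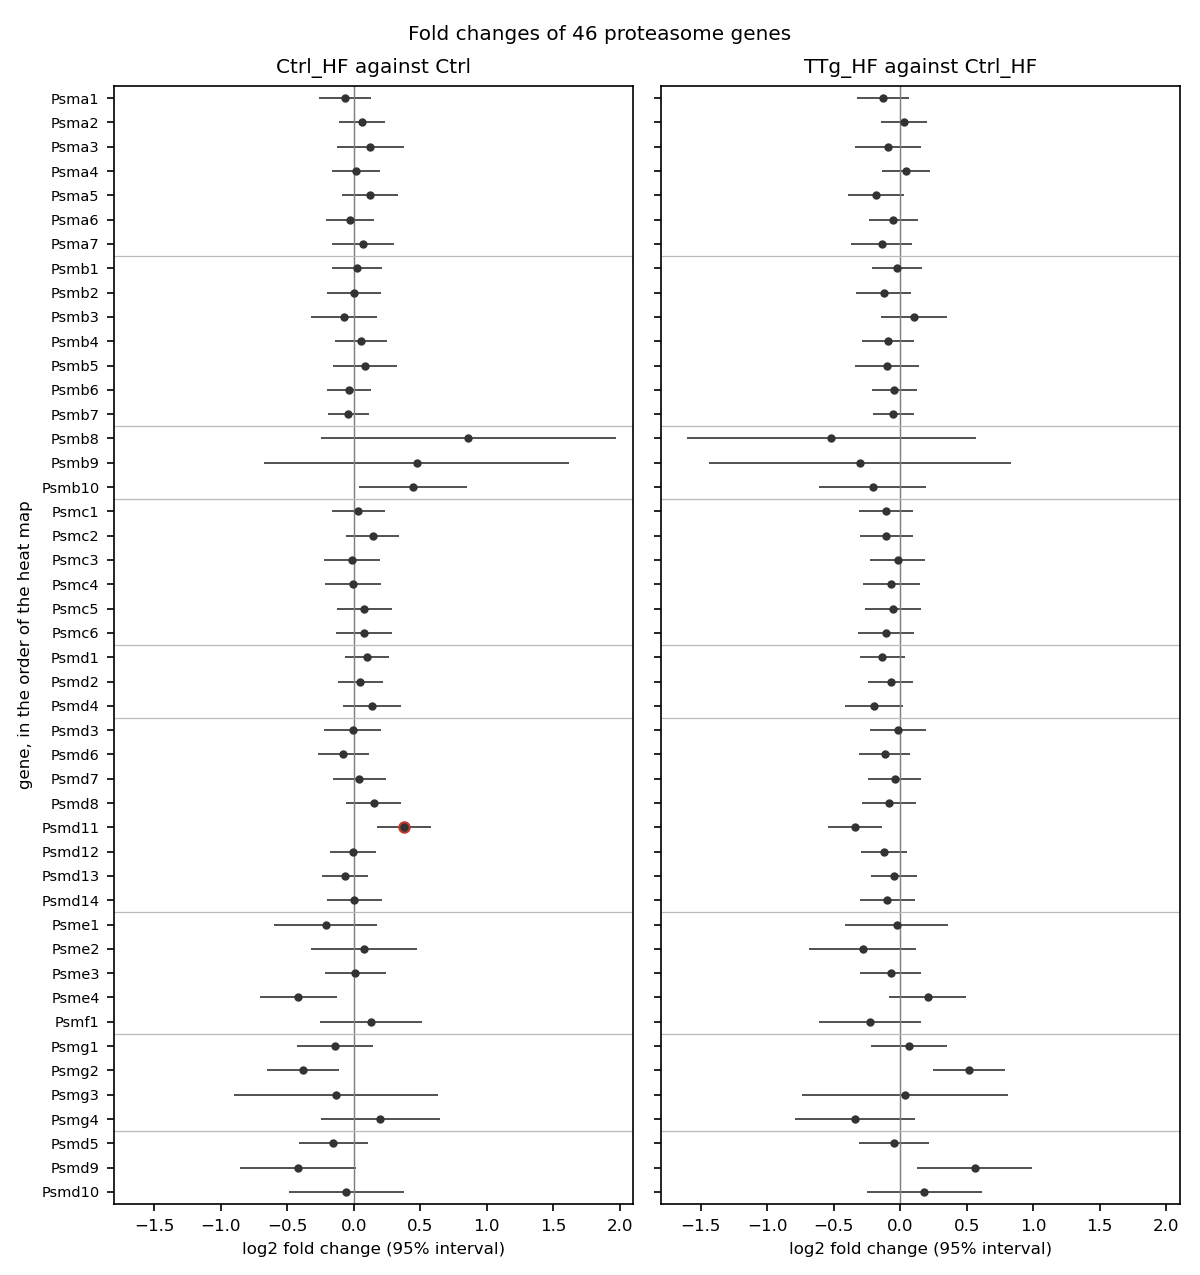
Log2 fold change of each tested member with its 95% interval, not adjusted for the number of genes, for Ctrl_HF against Ctrl (left) and TTg_HF against Ctrl_HF (right). The red point is Psmd11, the member called (0.38 on the log2 scale). Intervals are narrow for the core and cap and wide for Psmb8 and Psmb9.

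Psmd11 encodes the lid subunit Rpn6, which clamps the lid to the alpha ring of the core. In human stem cells and in worms, raising it is known to raise proteasome activity. The gene lies at chromosome 11, 80428615 to 80473248 on the plus strand of mm10. Its level was 116, 120.3 and 114 CPM in the Ctrl libraries, 139, 173 and 145 in Ctrl_HF and 116, 119 and 126 in TTg_HF. All 3 Ctrl_HF libraries lay above all 6 others, and Ctrl and TTg_HF overlapped. Psmd11 was 1.30-fold higher in Ctrl_HF than in Ctrl (log2 fold change 0.38, SE 0.09, edgeR adjusted p = 0.0496). TTg_HF was lower than Ctrl_HF by a log2 difference of −0.34 (SE 0.09), which did not pass the test (edgeR adjusted p = 0.156), and differed from Ctrl by 0.04 (adjusted p = 0.947). The cardiomyocyte markers had their lowest sums in TTg_HF (88912 to 90607 CPM), and the part of their shift in the level of Psmd11 was not tested.

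The Psmd11 call in Ctrl_HF against Ctrl lies close to the threshold. It held in 5 of 16 alternative analyses, with an adjusted p of 0.0123 by DESeq2 to 0.148 without Ctrl replicate 2, and the difference was positive in all 16. It was lost when any of Ctrl replicates 1, 2 and 3, Ctrl_HF replicates 2 and 3 or TTg_HF replicates 1, 2 and 3 was left out (adjusted p of 0.0649 to 0.148). Without Ctrl_HF replicate 1 it held (adjusted p = 0.0156), and TTg_HF against Ctrl_HF then passed as well (log2 fold change −0.40, adjusted p = 0.0344).

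In the core, none of the 14 constitutive subunits changed in any of the 3 comparisons. In the alpha ring of Ctrl_HF against Ctrl, the lowest p values were those of Psma5 and Psma3. Psma5 read 41.3, 39.7 and 40.9 CPM in Ctrl, 41.6, 48.1 and 43.2 in Ctrl_HF and 35.9, 38.7 and 42.2 in TTg_HF. Its Ctrl_HF libraries lay above those of Ctrl by a narrow margin, and the log2 difference was 0.12 (edgeR adjusted p = 0.506). The log2 difference of Psma3 was 0.13 (adjusted p = 0.580). Between TTg_HF and Ctrl_HF the lowest in the ring were Psma5 (−0.18, adjusted p = 0.417) and Psma1 (−0.13, adjusted p = 0.547).

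The catalytic beta subunits carry the chymotrypsin-like (Psmb5), caspase-like (Psmb6) and trypsin-like (Psmb7) sites. Psmb5 read 34.6, 43.8 and 41.3 CPM in Ctrl, 41.1, 46.2 and 39.6 in Ctrl_HF and 38.7, 38.3 and 41.3 in TTg_HF. Psmb6 read 82.6, 86.6 and 91.9 CPM in Ctrl, 88.0, 82.8 and 84.3 in Ctrl_HF and 81.8, 81.8 and 84.0 in TTg_HF. Psmb7 read 108 in each Ctrl library, 107, 105 and 102 in Ctrl_HF and 102, 97.3 and 104 in TTg_HF. The groups overlapped for Psmb5 and Psmb6, whereas both diet groups lay below Ctrl for Psmb7, by a small step. The log2 differences of Ctrl_HF from Ctrl were 0.08 (Psmb5, adjusted p = 0.718), −0.03 (Psmb6, adjusted p = 0.848) and −0.04 (Psmb7, adjusted p = 0.794). Among the structural beta subunits, Psmb4 had a log2 difference of 0.06 in Ctrl_HF against Ctrl (adjusted p = 0.774) and −0.09 in TTg_HF against Ctrl_HF (adjusted p = 0.690). Psmb2 had the lowest p of the ring in TTg_HF against Ctrl_HF (log2 difference −0.12, adjusted p = 0.586). Its groups did not overlap, by a margin below the worth of 1 count. The highest TTg_HF library read 53.96 CPM and the lowest Ctrl_HF library 53.98.

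In the cap base, none of the 6 ATPases and none of the 3 other subunits changed. Psmc2, an ATPase of the ring that pulls substrates in, read 85.0, 88.2 and 83.8 CPM in Ctrl, 94.9, 103 and 86.8 in Ctrl_HF and 82.5, 85.7 and 95.8 in TTg_HF. The groups overlapped, with a log2 difference of 0.14 for Ctrl_HF against Ctrl (adjusted p = 0.404) and −0.11 for TTg_HF against Ctrl_HF (adjusted p = 0.636). Psmc5 (0.08, adjusted p = 0.682) was next in the first comparison and Psmc1 (−0.11, adjusted p = 0.631) was lowest in p in the second. Psmd4, the ubiquitin receptor Rpn10, read 64.9, 76.1 and 73.9 CPM in Ctrl, 83.5, 83.9 and 69.4 in Ctrl_HF and 66.1, 69.8 and 70.2 in TTg_HF. Its Ctrl_HF libraries 1 and 2 were the highest of the 9 and the other lay within Ctrl. The log2 differences were 0.14 for Ctrl_HF against Ctrl (adjusted p = 0.468) and −0.20 for TTg_HF against Ctrl_HF (adjusted p = 0.394). For Psmd1 they were 0.10 (adjusted p = 0.493) and −0.13 (adjusted p = 0.454).

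In the lid, the 7 subunits other than Psmd11 did not pass the test. Psmd8 came next in Ctrl_HF against Ctrl, with 77.9, 68.7 and 73.4 CPM in Ctrl and 74.4, 87.0 and 82.7 in Ctrl_HF (log2 difference 0.15, adjusted p = 0.399). Psmd12 came next in TTg_HF against Ctrl_HF (−0.12, adjusted p = 0.502). Psmd14, the deubiquitinase, had log2 differences of 0.01 (adjusted p = 0.985) and −0.10 (adjusted p = 0.680). Psmd6 was the member with the unadjusted p under 0.05 in TTg_HF against Ctrl, at 60.6, 67.8 and 62.1 CPM in Ctrl and 52.6, 54.3 and 59.2 in TTg_HF. These groups did not overlap, with a log2 difference of −0.20 (adjusted p = 0.512).

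For the 30 core and cap genes other than Psmd11, the data bound the size of any change. In Ctrl_HF against Ctrl, the log2 differences lay between −0.08 and 0.15, and the 95% intervals of the 30 genes reached from −0.32 to 0.37. That corresponds to at most 1.25-fold lower or 1.30-fold higher for any of them, without adjustment for their number. In TTg_HF against Ctrl_HF, the intervals of the same 30 reached from −0.42 to 0.36 (1.34-fold lower to 1.28-fold higher). In that comparison 3 of all 31 core and cap genes had a difference above 0, against 49.9% of all genes tested, and their median was −0.09 against −0.00. In TTg_HF against Ctrl, 9 of the 31 were above 0, against 49.7% of all genes, with a median of −0.03. Of all 46 members 15 were above 0 there. Leaving out 1 library gave 12 (without Ctrl replicate 1) to 22 (without TTg_HF replicate 1), where the median of the members was −0.06 and −0.0038. Genes read in the same libraries are not independent of each other. With the authors' own scaling factors, 12 of the 46 members were above 0 in TTg_HF against Ctrl_HF, against 9 with TMM, and the median of all members was −0.05 against −0.08. The median of all genes moved the same way, to 0.02 from −0.00. Ctrl_HF replicate 2 was the highest of the 9 libraries for 16 of the 31 core and cap genes (51.6%), and it was also the highest for 21.8% of all genes tested.

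The activators other than the cap did not pass the test. Psme4 encodes PA200, a nuclear activator that binds the core without ATP. Its level was 609.8, 815 and 600.2 CPM in Ctrl, 539.6, 428 and 551 in Ctrl_HF and 591, 543 and 619.6 in TTg_HF. Each Ctrl_HF library lay below each Ctrl library, and TTg_HF overlapped with both. The log2 difference of Ctrl_HF from Ctrl was −0.41 (SE 0.13, adjusted p = 0.111) and shrank to −0.26 without Ctrl replicate 2. TTg_HF against Ctrl_HF was 0.21 (adjusted p = 0.506).

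Psme1 and Psme2 encode the alpha and beta subunits of PA28, an activator that interferon gamma induces. Psme1 read 94.1, 115 and 135 CPM in Ctrl, 127, 89.6 and 80.4 in Ctrl_HF and 102, 92.4 and 97.0 in TTg_HF. Psme2 read 28.7, 31.8 and 35.6 CPM in Ctrl, 44.6, 32.3 and 24.7 in Ctrl_HF and 26.8, 29.1 and 27.4 in TTg_HF. Both were highest within Ctrl_HF in replicate 1, and the groups overlapped. The log2 difference of Ctrl_HF from Ctrl was −0.21 for Psme1 (adjusted p = 0.536) and 0.08 for Psme2 (adjusted p = 0.853). For TTg_HF against Ctrl_HF it was −0.03 (adjusted p = 0.959) and −0.28 (adjusted p = 0.513).

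None of the 3 inducible beta subunits passed the test in any comparison. Psmb8, which replaces Psmb5, read 4.08, 6.01 and 8.79 CPM in Ctrl, 21.2, 7.46 and 5.91 in Ctrl_HF and 6.30, 8.54 and 9.03 in TTg_HF. Psmb9, which replaces Psmb6, read 3.46, 5.89 and 7.62 CPM in Ctrl, 14.8, 4.53 and 4.40 in Ctrl_HF and 4.54, 5.90 and 8.56 in TTg_HF. Psmb10, which replaces Psmb7, read 12.5, 17.0 and 14.9 CPM in Ctrl, 25.7, 17.7 and 17.1 in Ctrl_HF and 19.1, 15.1 and 18.4 in TTg_HF. Ctrl_HF replicate 1 was the highest of the 9 libraries for each of the 3, and the other 8 libraries spanned 4.08 to 9.03 CPM for Psmb8, 3.46 to 8.56 for Psmb9 and 12.5 to 19.1 for Psmb10. The other Ctrl_HF libraries lay within the Ctrl range for Psmb8 and Psmb9, and just above it for Psmb10.

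**Figure D4:**
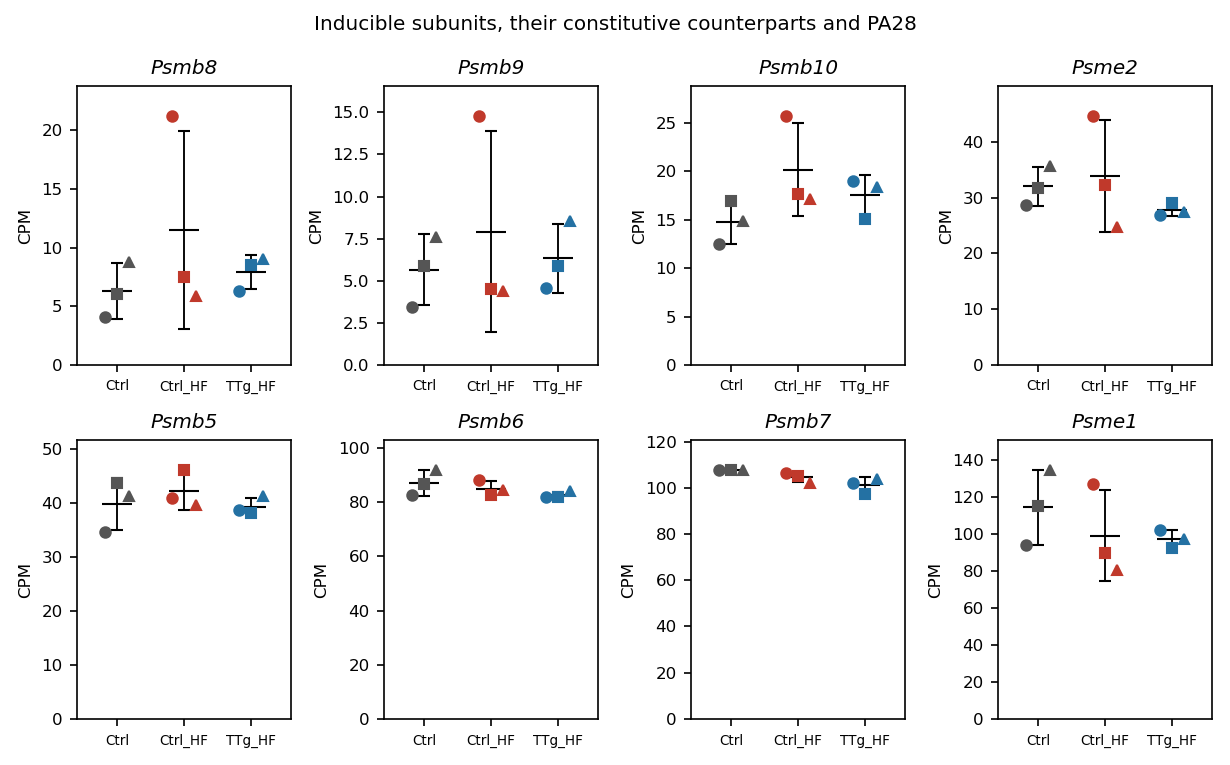
CPM of the inducible subunits Psmb8, Psmb9 and Psmb10 and of Psme2 (top) and of the constitutive subunits Psmb5, Psmb6 and Psmb7 and of Psme1 (bottom), each axis from 0. Circles, squares and triangles are replicates 1, 2 and 3 of each group, and bars are the mean ± SD (n = 3). Replicate 1 of Ctrl_HF stands above the other libraries in the top row, at 21.2 CPM for Psmb8, and not for Psmb5, Psmb6 or Psmb7.

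The log2 differences of Ctrl_HF from Ctrl were 0.86 for Psmb8 (SE 0.49, adjusted p = 0.361), 0.47 for Psmb9 (SE 0.51, adjusted p = 0.650) and 0.45 for Psmb10 (SE 0.18, adjusted p = 0.199). Without Ctrl_HF replicate 1 they were 0.08, −0.34 and 0.24. For TTg_HF against Ctrl_HF they were −0.52 (adjusted p = 0.665), −0.30 (adjusted p = 0.828) and −0.21 (adjusted p = 0.646), and without that library 0.27, 0.51 and 0.0050. The direction for Psmb9 in the first comparison and for all 3 in the second thus rested on 1 library. In Ctrl_HF against Ctrl the 95% intervals, not adjusted for the number of genes, reached from −0.24 to 1.97 for Psmb8 and from −0.67 to 1.62 for Psmb9 on the log2 scale, and both hold 0. That of Psmb10 reached from 0.04 to 0.85 and lay above 0 (unadjusted p = 0.0335 by edgeR).

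The share of each exchangeable pair that the inducible subunit took shows the same library. Of the counts of Psmb8 and Psmb5 together, Psmb8 held 10.5%, 12.1% and 17.6% in Ctrl, 34.1%, 13.9% and 12.98% in Ctrl_HF and 14.01%, 18.2% and 17.9% in TTg_HF. The exact 95% binomial interval was 29.7% to 38.6% in Ctrl_HF replicate 1 and 7.37% to 14.5% in Ctrl replicate 1, for counting error only. Psmb9 held 4.02% to 7.66% of its pair with Psmb6 in Ctrl, 4.96% to 14.4% in Ctrl_HF and 5.26% to 9.25% in TTg_HF. Psmb10 held 10.4% to 13.6% of its pair with Psmb7 in Ctrl, 14.4% to 19.5% in Ctrl_HF and 13.4% to 15.7% in TTg_HF. These shares are of counts and not per length. The Ctrl_HF shares of Psmb10 did not overlap with those of Ctrl, whereas the ranges of the other pairs did.

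Psmb8 (chromosome 17, 34197721 to 34201454) and Psmb9 (chromosome 17, 34181987 to 34187764) lie beside the peptide transporter genes Tap1 and Tap2 in the major histocompatibility region, and Psmb10 lies on chromosome 8 (105935735 to 105938444). Psmb9 and Tap1 overlap by 212 bases on opposite strands, so counts there can be told apart only if strand was used, a setting not given in the sources used here. Other genes of the pathway were also highest in Ctrl_HF replicate 1. B2m, the light chain of MHC class I on chromosome 2, read 172 CPM there against 43.1 to 80.0 in the other 8 libraries. On chromosome 17, where Psmb8 and Psmb9 lie, H2-D1, a class I heavy chain, read 474 against 109 to 171, and Tap1 read 22.9 against 5.26 to 12.9. On chromosome 8, where Psmb10 lies, Nlrc5, the transactivator of class I genes, read 23.1 against 3.51 to 9.15. Calr, Pdia3 and Canx, which help class I molecules fold, lie on chromosomes 8, 2 and 11 and were not highest there.

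Of 12 genes of class I antigen processing, 9 were highest of the 9 libraries in Ctrl_HF replicate 1, as were 11 of 17 interferon genes, against 11.5% of all genes tested and 2 of the 31 core and cap genes. The same library was highest for 7 of 12 macrophage markers and 5 of 10 fibroblast markers. The macrophage markers summed to 304.8 to 372 CPM in Ctrl, to 549.9, 434 and 403 in Ctrl_HF and to 404 to 462 in TTg_HF. The markers of T, natural killer and B cells summed to 3.87 to 4.27 CPM in Ctrl, to 9.04, 4.24 and 1.74 in Ctrl_HF and to 3.05 to 3.90 in TTg_HF, and none of the 12 was high enough to be tested. The part of these cells in the level of the inducible subunits was not tested.

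Among the chaperones of assembly, none of the 7 changed. Psmg2, which with Psmg1 forms the dimer that builds the alpha ring, read 21.9, 21.3 and 18.5 CPM in Ctrl, 16.7, 13.9 and 16.7 in Ctrl_HF and 21.8, 23.9 and 22.05 in TTg_HF. Its 3 Ctrl_HF libraries lay below all 6 others. The log2 difference was −0.38 for Ctrl_HF against Ctrl (SE 0.12, adjusted p = 0.113) and 0.52 for TTg_HF against Ctrl_HF (SE 0.12, adjusted p = 0.116). Without Ctrl_HF replicate 1 the second passed (0.56, adjusted p = 0.0434), where 665 of 12892 genes were called. Its partner Psmg1 read 12.97 to 15.2 CPM over Ctrl and Ctrl_HF (log2 difference −0.14, adjusted p = 0.595). Psmg4, which with Psmg3 forms the other assembly dimer, had −0.34 in TTg_HF against Ctrl_HF (adjusted p = 0.482).

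Psmd9, Psmd5 and Psmd10 are chaperones of the cap base. Psmd9 read 10.01, 10.2 and 14.1 CPM in Ctrl, 9.996, 6.87 and 8.69 in Ctrl_HF and 10.7, 14.1 and 12.8 in TTg_HF. Its Ctrl_HF libraries lay below the others, with the highest of them level with the lowest of Ctrl. The log2 difference was −0.42 for Ctrl_HF against Ctrl (SE 0.20, adjusted p = 0.259) and 0.56 for TTg_HF against Ctrl_HF (SE 0.20, adjusted p = 0.233). Psmd5 had −0.15 in Ctrl_HF against Ctrl (adjusted p = 0.512) and Psmd10 0.18 in TTg_HF against Ctrl_HF (adjusted p = 0.719).

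**Figure D5:**
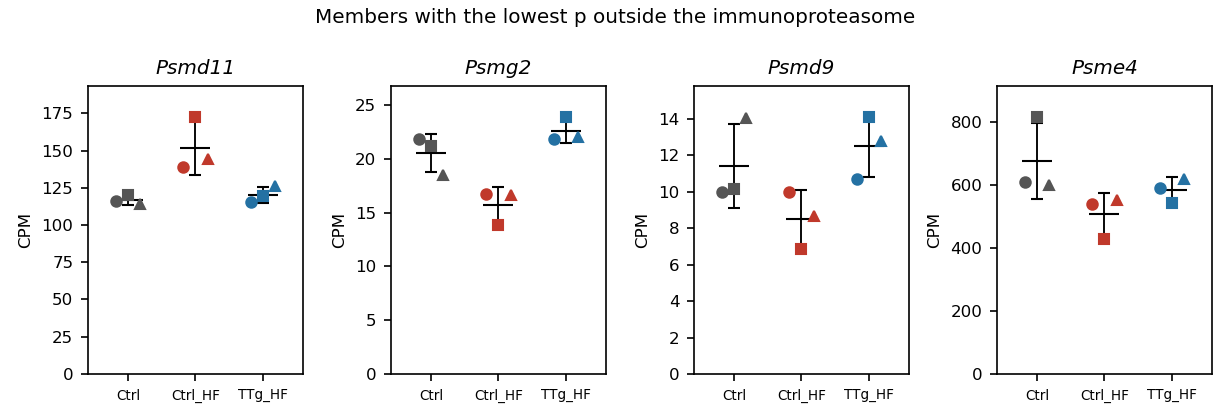
CPM of Psmd11, Psmg2, Psmd9 and Psme4 in each library, each axis from 0. Circles, squares and triangles are replicates 1, 2 and 3 of each group, and bars are the mean ± SD (n = 3). Psmd11 is highest in the 3 Ctrl_HF libraries (139 to 173 CPM) and Psmg2 lowest there (13.9 to 16.7 CPM), while for Psmd9 and Psme4 the Ctrl_HF libraries reach close to another group.

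Counting groups that did not overlap, 3 members were higher in every Ctrl_HF library than in every Ctrl library (Psmd11, Psma5 and Psmb10) and 4 lower (Psmd9, Psmg2, Psmb7 and Psme4), where 11.5% and 11.8% of all genes did so. Between TTg_HF and Ctrl_HF 3 were higher (Psmd9, Psmd10 and Psmg2) and 2 lower (Psmd11 and Psmb2), against 9.31% and 9.53% of all genes. Between TTg_HF and Ctrl 1 was higher (Psma2) and 6 lower (Psma1, Psmb7, Psmd5, Psmd6, Psmd12 and Psmd13), against 9.23% and 9.48%.

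The wider ubiquitin and antigen pathway was described from 6 lists holding 84 symbols, of which 80 stand in the table and 79 were tested. Of the 14 tested proteasome genes with other names, none changed in Ctrl_HF against Ctrl. Nfe2l1, the transcription factor that raises proteasome genes when the protease is inhibited, had the lowest p, at 646, 654 and 666 CPM in Ctrl, 778, 792 and 733 in Ctrl_HF and 777, 781 and 789 in TTg_HF. All diet libraries lay above Ctrl, and the log2 difference of Ctrl_HF from Ctrl was 0.23 (SE 0.06, adjusted p = 0.0606). In TTg_HF against Ctrl_HF the lowest p was that of Txnl1, a thioredoxin of the cap (−0.33, adjusted p = 0.194).

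None of the 15 tested genes of ubiquitin itself, its activation and its shuttling changed in Ctrl_HF against Ctrl. Ubb, a polyubiquitin gene, had the lowest p (0.32, adjusted p = 0.127), and in TTg_HF against Ctrl_HF it was the shuttle Ubqln1 (−0.27, adjusted p = 0.246). None of the 11 muscle ubiquitin ligases changed either. Asb2, which targets filamins for degradation, read 586, 543 and 530.1 CPM in Ctrl, 431, 219.6 and 269.9 in Ctrl_HF and 468, 415 and 467 in TTg_HF. Its Ctrl and Ctrl_HF libraries did not overlap, with a log2 difference of −0.85 (SE 0.21, adjusted p = 0.0658). Fbxo40 had the lowest p of the list in TTg_HF against Ctrl_HF (−0.33, adjusted p = 0.158). The log2 differences of Ctrl_HF from Ctrl were −0.06 for Trim63 (adjusted p = 0.883) and −0.20 for Fbxo32 (adjusted p = 0.562).

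None of the 12 tested antigen processing genes passed in Ctrl_HF against Ctrl, where Tapbp, which loads peptides onto class I, had the lowest p (0.31, adjusted p = 0.389), or in TTg_HF against Ctrl_HF, where it was Pdia3 (−0.31, adjusted p = 0.440). Of the 17 interferon genes, 1 rose and 1 fell in Ctrl_HF against Ctrl, and 16 had a difference above 0, against 51.5% of all genes. In TTg_HF against Ctrl 15 were above 0, against 49.7% of all genes, and 1 was called higher. Oas2, which senses double-stranded RNA, rose from 4.74 to 6.80 CPM in Ctrl to 10.5 to 14.6 in Ctrl_HF (log2 fold change 1.15, SE 0.18, adjusted p = 0.00995). Ifngr2, a chain of the interferon gamma receptor, fell from 196 to 225 CPM to 136 to 157 (−0.51, SE 0.08, adjusted p = 0.0120). It also had the lowest p of the list in TTg_HF against Ctrl_HF (0.34, adjusted p = 0.127).

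Of the 10 tested targets of NRF2, the regulator of antioxidant genes, 2 rose in Ctrl_HF against Ctrl. Srxn1, which repairs oxidised peroxiredoxins, read 32.5, 19.5 and 21.9 CPM in Ctrl, 70.9, 65.5 and 47.8 in Ctrl_HF and 33.0, 26.2 and 29.4 in TTg_HF. Its Ctrl_HF libraries lay above all 6 others (log2 fold change 1.32, SE 0.20, adjusted p = 0.0113). Hmox1, heme oxygenase, rose as well (1.19, SE 0.25, adjusted p = 0.0294). Of the 10, 8 were highest of the 9 libraries in Ctrl_HF replicate 1. In TTg_HF against Ctrl_HF Srxn1 had the lowest p of the list (−1.06, SE 0.20, adjusted p = 0.0940). Psmb5 and Psmb6, whose antioxidant element cores are printed above, differed by 0.08 and −0.03 between Ctrl_HF and Ctrl.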

How the data were processed

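The deposited table of gene counts was used. Per the file headers it also holds, for each library, a normalized signal and a transformed value. Checks on the file found the authors' normalized signal to be the counts of a library multiplied by a constant (relative deviation up to 1.08e-04 where counts exceed 500), and the transformed value is log2 of the normalized signal plus 1. The submitters' processing notes name mm10. Aligner, counter, annotation and use of strand were not given in the sources used here.

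Of 49585 rows, 12670 passed filterByExpr of edgeR 4.0.16 (minimum count 10, minimum total 15) and held at least 99.85% of each library's counts. Counts were scaled by TMM, and 1 quasi-likelihood model with group as its term was fitted to all 9 libraries. The tests were two-sided and adjusted by Benjamini-Hochberg over all 12670 genes. SE and 95% intervals come from the F statistic. Exact permutation of 3 against 3 libraries reaches 0.1 at best and was not used. The fit was checked on simulated counts. Alternatives were DESeq2 1.42.0, other factors and filters, 2 groups alone, a replicate block and each library left out. R 4.3.3 and Python 3.11.15 were used.

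Members, lists, tests and alternatives were chosen with earlier results of these data known. Named genes are the inducible subunits, their counterparts, Psme1 and Psme2, members called, the 2 of lowest p per role in Ctrl_HF against Ctrl and TTg_HF against Ctrl_HF, pathway genes called or of lowest p per list, the extremes of level per role and members not tested. Psma2, Psmb2, Psmd6, Psmd12, Psmd13, Psmd14, Trim63, Fbxo32 and genes named for Ctrl_HF replicate 1 were chosen after their values were seen. The listed genes Sem1, Ecpas and Ufd1 stand in the table as Shfm1, AI314180 and Ufd1l.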

Additional observations from a re-analysis of the deposited data

How the results depend on the processing

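The only call among the 46 tested members was Psmd11 in Ctrl_HF against Ctrl, where 3.61% of all genes were called. The share of members called was not above that of all genes. With the authors' factors, with only the 2 groups compared and with the replicate block 0 members were called there, and 1 with DESeq2's size factors, with no filter, with a filter of 1 CPM in 3 libraries and by DESeq2. Leaving out 1 library gave 0 to 1 members in Ctrl_HF against Ctrl, 0 to 2 in TTg_HF against Ctrl_HF (2 without Ctrl_HF replicate 1, Psmd11 and Psmg2) and 0 to 0 in TTg_HF against Ctrl. Over all genes, 458, 11 and 59 were called in these comparisons. DESeq2 called 833 of 13430, 341 of 12265 and 184 of 11878. With only the 2 groups compared 126, 0 and 117 were called, and without a filter 109 in TTg_HF against Ctrl_HF and 118 in TTg_HF against Ctrl. Leaving out 1 library gave 85 to 1122, 2 to 665 and 24 to 114, where the highest each time was without Ctrl_HF replicate 1. The cause was not tested.

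Labels give all groups replicates 1 to 3. The replicate block gave an adjusted p of 0.0629 for Psmd11 and called 0 members. Deviations of same-numbered libraries correlated at −0.164 to 0.197 across genes, and of differently numbered ones at −0.191 to 0.167. A library matched its own number best in 6 of 18 cases. With 3 libraries a group this check cannot exclude a tie between same-numbered libraries, and the labels give none beyond the number.

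Of 2208 values of members under alternatives, 102 had the other sign and 7 of these moved by more than 1 SE. None was past the threshold. Over libraries left out, with 1 end of each range without Ctrl_HF replicate 1 (Psmd10: Ctrl replicate 3), Psmb9 ranged from −0.34 to 0.77, Psme2 from −0.17 to 0.27 and Psmd10 from −0.17 to 0.17 in Ctrl_HF against Ctrl. In TTg_HF against Ctrl_HF Psmb8 ranged from −0.85 to 0.27, Psmb9 from −0.61 to 0.51, Psmb10 from −0.32 to 0.0050 and Psme1 from −0.16 to 0.19. Where a left-out library leaves 2 in a group, the spread is still shared with the other groups. Psmb8 and Psmb9 had 28 to 155 counts a library, and the part of counting error in their spread was not tested.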

Other observations

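Psmc3ip, which starts like an ATPase of the cap base but encodes a partner of meiotic recombinases, lay at 1.39 to 1.73 CPM in Ctrl, 0.439 to 1.16 in Ctrl_HF and 1.47 to 1.76 in TTg_HF. Its Ctrl_HF libraries lay below all 6 others, but the gene had only 3 to 16 counts a library. Neither difference passed edgeR's test (log2 difference −0.78, adjusted p = 0.280, and 0.84, adjusted p = 0.356).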
